A study of Mus musculus with 12 samples.

Results

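The 38 Hox genes described here were taken by name from the 4 mouse Hox clusters, out of 54532 genes counted in each of the 12 libraries, by a rule that uses gene names and no measured value. They comprise 10 genes of the Hox A cluster (mm10, chr6:52162417-52260880), 10 of Hox B (chr11:96194316-96368256), 9 of Hox C (chr15:102921103-103036852) and 9 of Hox D (chr2:74668310-74765142). By paralogue group, the number that numbers each gene from the 3′ to the 5′ end of its cluster, 11 belong to groups 1 to 4, 11 to groups 5 to 8 and 16 to groups 9 to 13.

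Hox genes encode homeodomain transcription factors that give cells of the embryo their position along the head-to-tail axis. Their order on the chromosome follows the order of their expression, so that the anterior paralogue groups start in the hindbrain, the middle groups in the lower hindbrain and spinal cord and the posterior groups in the trunk and tail, while forebrain and midbrain express none. Retinoic acid opens the clusters, Polycomb complexes keep the unused part silent through methylation of a lysine of histone H3, and the H3 K27M mutation alters that same lysine and is known to inhibit the Polycomb enzyme.

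The cells were brainstem progenitors of mouse pups aged P3 to P5, C57BL/6, with the Nestin TVA transgene and floxed p53, kept without serum in EGF and FGF2 and infected with RCAS viruses. For its neurosphere cultures the paper gives the age as P3. RCAS enters only cells that carry the TVA receptor, which here is driven by the nestin promoter. The 4 groups of 3 libraries received human *ACVR1*, a bone morphogenetic protein receptor, either as WT or with the activating mutation R206H, each alone or together with H3.1K27M. Every group carried floxed p53 and an *ACVR1* vector, no Cre vector is listed for any of them, and the share of infected cells is not given in the sources used here. The labels do not tie replicate numbers to litters, so that p-values measure only the spread between these libraries.

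Total counts ran from 19315020 to 26456257 per library. Replicate 1 of *ACVR1* WT stood apart: per gene, its counts differed from those of the other 2 by 75.3 and 129 times sampling noise (chi-square per degree of freedom), which differed from each other by 17.0, against 2.91 to 7.07 between replicates in the other 3 groups. The neural progenitor genes *Sox2* and *Nes* were present in every library, with *Sox2* between 211 and 375 CPM (counts scaled to library size, with TMM factors over the 12 libraries). *Hoxa2* to *Hoxa5* and *Hoxb2* to *Hoxb4*, which mark the hindbrain, had counts in every library. Genes of regions anterior to the Hox domain were also found, some of them forebrain genes that go against the brainstem label. Over 12 such genes, sums were 32.5 to 47.5 CPM without H3.1K27M and 76.8 to 99.1 CPM with it (given with the anterior genes). In bulk RNA, fewer cells that express a gene and less RNA per cell cannot be told apart.

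Because the Hox genes that follow were lower together, the promoters of 5 of them are shown, 250 bases before to 50 after the start of transcription (RefSeq, GRCm38.p6), with CG dinucleotides, the sites of DNA methylation, in capitals.

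*Hoxa2* (chr6:52164782-52165081, minus strand): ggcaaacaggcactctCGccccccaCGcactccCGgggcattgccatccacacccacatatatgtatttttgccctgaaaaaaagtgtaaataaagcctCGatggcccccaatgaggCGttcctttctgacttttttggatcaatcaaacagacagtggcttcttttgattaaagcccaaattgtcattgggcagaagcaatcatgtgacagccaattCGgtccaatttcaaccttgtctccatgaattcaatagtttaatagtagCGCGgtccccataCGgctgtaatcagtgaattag
*Hoxa3* (chr6:52213018-52213317, minus strand): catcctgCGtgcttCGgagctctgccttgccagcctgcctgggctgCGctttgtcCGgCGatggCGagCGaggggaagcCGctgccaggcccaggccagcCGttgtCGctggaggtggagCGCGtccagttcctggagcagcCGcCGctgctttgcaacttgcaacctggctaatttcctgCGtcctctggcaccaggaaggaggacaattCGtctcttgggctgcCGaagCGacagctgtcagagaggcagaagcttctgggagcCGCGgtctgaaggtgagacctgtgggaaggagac
*Hoxa5* (chr6:52204538-52204837, minus strand): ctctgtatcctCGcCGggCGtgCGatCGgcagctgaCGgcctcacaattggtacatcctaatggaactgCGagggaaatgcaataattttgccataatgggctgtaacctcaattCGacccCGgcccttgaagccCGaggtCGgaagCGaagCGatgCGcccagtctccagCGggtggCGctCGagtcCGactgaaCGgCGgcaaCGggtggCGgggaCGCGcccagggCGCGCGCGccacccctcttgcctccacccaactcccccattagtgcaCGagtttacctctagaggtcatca
*Hoxa7* (chr6:52218524-52218823, minus strand): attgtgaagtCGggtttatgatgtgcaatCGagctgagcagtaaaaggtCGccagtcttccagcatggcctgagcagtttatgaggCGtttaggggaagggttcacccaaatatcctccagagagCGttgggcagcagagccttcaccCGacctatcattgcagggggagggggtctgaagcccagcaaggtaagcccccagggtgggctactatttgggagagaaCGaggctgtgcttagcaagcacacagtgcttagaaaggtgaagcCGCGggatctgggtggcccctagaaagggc
*Hoxb4* (chr11:96318017-96318316, plus strand): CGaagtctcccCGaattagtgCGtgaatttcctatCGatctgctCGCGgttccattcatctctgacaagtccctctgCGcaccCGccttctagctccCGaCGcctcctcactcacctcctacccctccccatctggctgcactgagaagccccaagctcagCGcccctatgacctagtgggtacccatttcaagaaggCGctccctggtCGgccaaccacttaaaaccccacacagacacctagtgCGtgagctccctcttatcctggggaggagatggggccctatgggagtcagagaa

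These windows held 9 CG in *Hoxa2*, 20 in *Hoxa3*, 29 in *Hoxa5*, 9 in *Hoxa7* and 14 in *Hoxb4*, and the 24 windows found for 22 of the 38 genes held between 4 and 45, with a median of 14.5, against a median of 7.0 over all 32851 promoter windows. The letters TGATNNAT, a joint site of Hox and Pbx proteins, were found on either strand in the *Hoxa2* window and in 4 of the 24 Hox windows (16.7%), against 8.85% of all windows. AGGTCA, the repeat unit of retinoic acid receptor elements, stood in the *Hoxa5* and *Hoxb4* windows and in 7 of 24 (29.2%), against 16.3% of all windows. TATAAA stood in 4 of 24 (16.7%, against 13.6% of all) and GGCGCC in 5 of 24 (20.8%, against 11.9%), neither of them in the 5 windows shown.

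Transcripts of the Hox clusters were scarce and came almost wholly from their anterior part. The 38 genes summed to 4540 counts over the 12 libraries, 73.0% of them from Hox A and 24.6% from Hox B, with 1.19% from Hox C and 1.15% from Hox D. Paralogue groups 1 to 4 gave 74.0%, groups 5 to 8 gave 25.7%, and the 16 genes of groups 9 to 13 together gave 15 counts. A count in all 12 libraries was found for 9 genes, while 10 had none in any library (*Hoxb1*, *Hoxb13*, *Hoxc9*, *Hoxc10*, *Hoxc11*, *Hoxc12*, *Hoxd4*, *Hoxd11*, *Hoxd12* and *Hoxd13*). No count over the 12 libraries allows a level of up to 0.0115 CPM (3 counts of the total, counting error only). This limit does not hold for *Hoxd4*, because other annotated genes covered 52.3% of its exon length and reads there were left out.

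Per kb of exon, mean levels over the 12 libraries ran from 2.61 CPM per kb in *Hoxa2* through 1.54 in *Hoxa5*, 0.898 in *Hoxa4*, 0.594 in *Hoxb4* and 0.592 in *Hoxa3* to 0.276 in *Hoxb3*, 0.205 in *Hoxb2*, 0.175 in *Hoxb8* and 0.166 in *Hoxa7*. In Hox A the level per kb fell off after *Hoxa5*, to 0.0956 in *Hoxa6* and 0.00146 in *Hoxa9*, and in Hox B after *Hoxb8*, to 0.00572 in *Hoxb9*. The counting left out reads that overlap more than 1 gene, and other annotated genes covered 52.9% of the exon length of *Hoxb3*, 27.3% of *Hoxb2*, 27.1% of *Hoxa3*, 20.4% of *Hoxa7*, 16.0% of *Hoxa4* and 15% of *Hoxa2*, but none of *Hoxa5*, *Hoxb4* and *Hoxb8*. Levels of the former are therefore lower bounds per kb, and neighbours in this order, such as *Hoxb4* and *Hoxa3*, cannot be ranked.

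**Figure D1:**
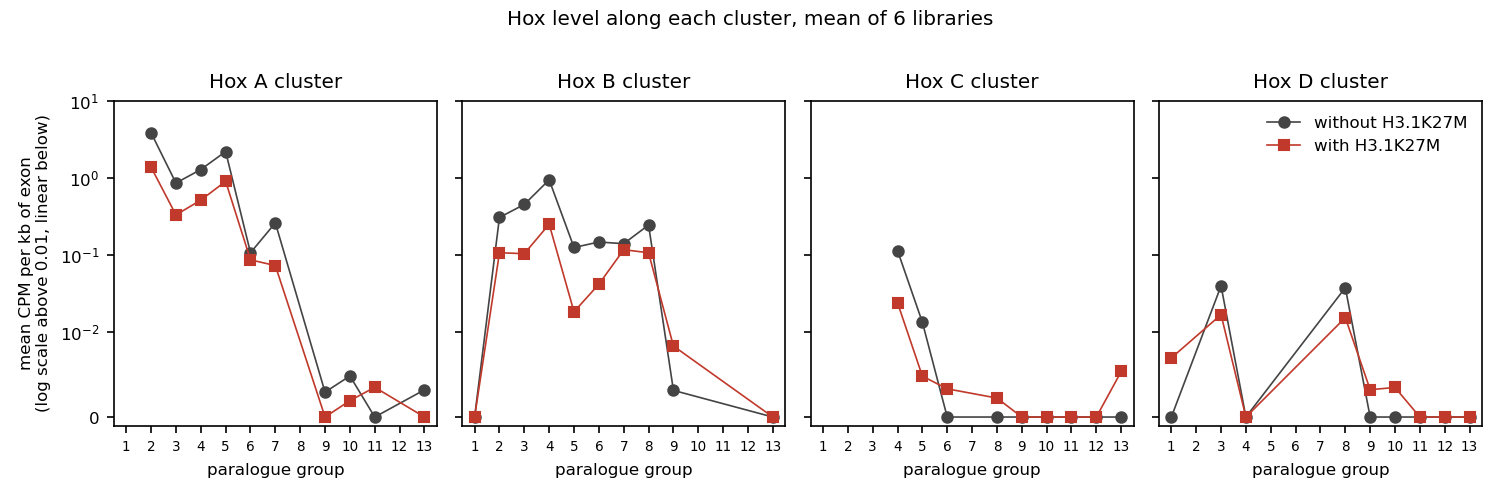
Mean level per kb of exon (CPM per kb, logarithmic above 0.01 and linear below) of each Hox gene against its paralogue group, 1 panel per cluster, for the 6 libraries without (grey circles) and the 6 with H3.1K27M (red squares). In Hox A and Hox B the red squares of groups 2 to 5 lie below the grey circles, *Hoxa2* at 1.37 against 3.84 CPM per kb, and groups 9 to 13 lie at or near 0 with and without H3.1K27M.

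The comparison with H3.1K27M asked how libraries with and without the histone mutation differed under each *ACVR1* vector. A difference in the brain region the cells came from and an effect of H3.1K27M cannot be told apart (given with the anterior genes). All Hox genes high enough to test were lower with H3.1K27M. Among 8 genes tested with *ACVR1* WT, 8 fell, and among 8 tested with *ACVR1* R206H, 8 fell (edgeR quasi-likelihood test, Benjamini-Hochberg adjusted p under 0.05 over all genes). Averaged over both vectors, 8 of 8 fell, by 2.44 times (*Hoxa5*) to 4.40 times (*Hoxb3*), where *Hoxa7* and *Hoxb2* averaged 10 counts only in the libraries without H3.1K27M. Of all genes tested, 10.4% were called lower in the first comparison, 27.4% in the second and 27.7% in the average, and groups did not overlap for 22.5% (lower) and 22.5% (higher) of all genes in the first and 30.8% and 32.0% in the second. The median log2 fold change was -1.90, -1.23 and -1.53 for the Hox genes tested, against -0.02, 0.00 and -0.02 for all genes. Leaving out the genes that averaged 10 counts only in the group without H3.1K27M, whose direction the filter favours, 6 of 6 fell in each of the 3 comparisons, with medians of -1.86, -1.22 and -1.46. A log2 fold change of -1 or below was reached by 6 of these 6 and 4.87% of all genes with *ACVR1* WT, and by 5 of these 6 and 3.02% of all genes with *ACVR1* R206H.

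*Hoxa2*, which sets the identity of the upper hindbrain and of the second branchial arch, was the Hox gene with the most counts. It had 107, 161 and 202 counts in the 3 *ACVR1* WT libraries, 109, 128 and 118 with *ACVR1* R206H, 38, 41 and 56 with *ACVR1* WT and H3.1K27M, and 58, 70 and 80 with *ACVR1* R206H and H3.1K27M. All 6 libraries with H3.1K27M lay below all 6 without it. Its level was 7.74 ± 2.45 CPM (SD, n = 3) with *ACVR1* WT and 1.91 ± 0.334 with H3.1K27M added, a log2 fold change of -2.01 (SE 0.29, adjusted p = 0.00667). With *ACVR1* R206H the levels were 5.91 ± 0.604 and 2.96 ± 0.169 CPM, which is a change of -1.0 on the log2 scale (SE 0.14, adjusted p = 6.4e-05).

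*Hoxb2*, its paralogue in Hox B, acts in the same hindbrain segments and in facial motor neurons. It had 16, 28 and 26 counts with *ACVR1* WT, 13, 15 and 31 with *ACVR1* R206H, 8, 9 and 6 with *ACVR1* WT and H3.1K27M, and 9, 11 and 8 with *ACVR1* R206H and H3.1K27M. The groups did not overlap within either *ACVR1* background, although counts were small. The log2 fold change was -1.79 (SE 0.36, adjusted p = 0.0184) with *ACVR1* WT and -1.28 (SE 0.39, adjusted p = 0.015) with *ACVR1* R206H, and *Hoxb2* had a mean of 10 counts only in the groups without H3.1K27M.

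The group 3 genes *Hoxa3* and *Hoxb3* mark the middle hindbrain segments, and *Hoxa3* also builds thymus and parathyroid. *Hoxa3* had 98, 103 and 122 counts with *ACVR1* WT, 108, 109 and 81 with *ACVR1* R206H, 41, 33 and 39 with *ACVR1* WT and H3.1K27M, and 54, 45 and 67 with *ACVR1* R206H and H3.1K27M. *Hoxb3* had 34, 57 and 37 counts, then 27, 31 and 45, then 11, 11 and 8, then 15, 8 and 7, in the same order of groups. Both genes were lower in every library with H3.1K27M than in any without it. With *ACVR1* WT the log2 fold change was -1.72 (SE 0.17, adjusted p = 0.00215) for *Hoxa3* and -2.29 (SE 0.34, adjusted p = 0.00739) for *Hoxb3*. With *ACVR1* R206H it was -1.07 (SE 0.18, adjusted p = 3.3e-04) and -1.98 (SE 0.35, adjusted p = 4.8e-04).

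The group 4 genes *Hoxa4* and *Hoxb4* are used from the lower hindbrain downwards, and *Hoxb4* is known for expanding blood stem cells. *Hoxa4* had 41, 42 and 37 counts with *ACVR1* WT, 30, 44 and 54 with *ACVR1* R206H, 17, 10 and 20 with *ACVR1* WT and H3.1K27M, and 23, 22 and 23 with *ACVR1* R206H and H3.1K27M. *Hoxb4* had 43, 57 and 57 counts, then 55, 33 and 47, then 11, 13 and 10, then 25, 7 and 23. Both were again lower in all 6 libraries with H3.1K27M. Relative to its mean, *Hoxb4* spread most in the last group (0.789 ± 0.447 CPM, SD, n = 3), where replicate 2 had 7 counts. Under *ACVR1* WT *Hoxb4* stood at 2.58 ± 0.489 CPM (SD, n = 3) without and 0.489 ± 0.116 with the mutation, a change of -2.39 on the log2 scale (SE 0.27, adjusted p = 0.00312), and *Hoxa4* changed by -1.56 (SE 0.24, adjusted p = 0.00801). With *ACVR1* R206H the log2 fold change was -1.51 (SE 0.35, adjusted p = 0.00307) for *Hoxb4* and -1.13 (SE 0.26, adjusted p = 0.00266) for *Hoxa4*.

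*Hoxa5*, a gene of lower brainstem and cervical motor neurons, was the most posterior gene of Hox A with more than a few counts per library in every group. It had 90, 73 and 61 counts with *ACVR1* WT, 89, 90 and 95 with *ACVR1* R206H, 53, 22 and 35 with *ACVR1* WT and H3.1K27M, and 38, 42 and 49 with *ACVR1* R206H and H3.1K27M. With H3.1K27M its log2 fold change was -1.24 (SE 0.30, adjusted p = 0.0306) under *ACVR1* WT and -1.31 (SE 0.15, adjusted p = 1.3e-05) under *ACVR1* R206H. Libraries with and without H3.1K27M did not overlap, and no other annotated gene shares its exons.

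Of the trunk genes, *Hoxa7* had 18, 21 and 17 counts with *ACVR1* WT, 14, 13 and 7 with *ACVR1* R206H, 4, 3 and 3 with *ACVR1* WT and H3.1K27M, and 7, 5 and 7 with *ACVR1* R206H and H3.1K27M. Under *ACVR1* WT its log2 fold change was -2.65 (SE 0.30, adjusted p = 0.00329), but it passed the filter on low counts only through the *ACVR1* WT group, and under *ACVR1* R206H it was too low to test. *Hoxb8*, a gene of the thoracic cord that is also active in blood cell precursors, had 5, 11 and 10 counts, then 11, 21 and 19, then 4, 4 and 5, then 11, 6 and 9. It was tested only with *ACVR1* R206H, where it passed through the group without H3.1K27M, and changed by -1.18 (SE 0.37, adjusted p = 0.0178). DESeq2 did not call that change, and 4 of the 6 fits without 1 library did not either (adjusted p from 0.00708 to 0.07 over 11 alternatives).

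**Figure D2:**
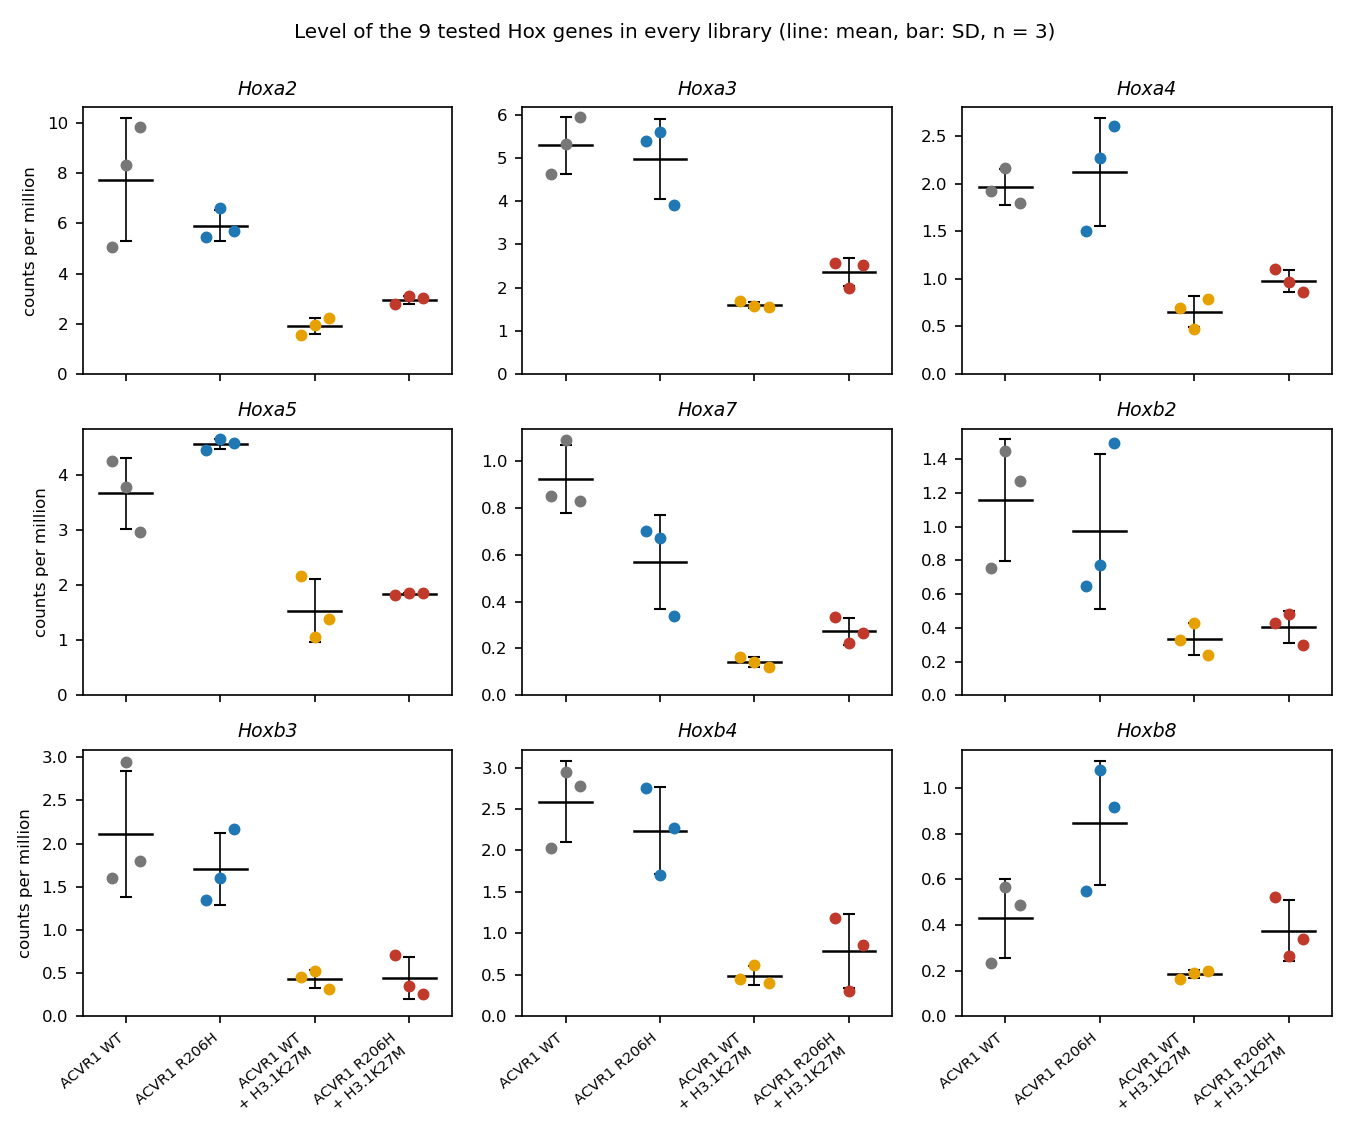
Level of the 9 tested Hox genes in CPM, 1 panel per gene, with 1 point per library in each of the 4 groups, the mean as a line and the SD as a bar (n = 3). In 8 panels every library with H3.1K27M lies below every library without it, and in the *Hoxb8* panel the ranges 0.236 to 1.08 CPM without and 0.164 to 0.525 CPM with H3.1K27M overlap.

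Over the 6 libraries with and the 6 without H3.1K27M, 8 of the 8 genes tested in the average did not overlap and were lower, against 14.9% of all genes tested. *Hoxa7* and *Hoxb2* under *ACVR1* WT and in the average, and *Hoxb2* and *Hoxb8* under *ACVR1* R206H, reached the filter only through the group where they were higher, so that they had to differ in this direction. Without any filter on low counts, 28 Hox genes had a count and 12 were called lower in the average, against 12.4% of all genes in that fit. The other 4 were *Hoxb5* (-2.76, adjusted p = 0.00113), *Hoxb6* (-2.37, adjusted p = 0.0097), *Hoxc4* (-2.38, adjusted p = 0.0136) and *Hoxb8* (-1.19, adjusted p = 0.00789). Summed over 6 libraries without and 6 with H3.1K27M, *Hoxb5* had 42 and 7 counts, *Hoxb6* 35 and 11, and *Hoxc4* 35 and 8. These are genes of the lower hindbrain and the cervical cord, and their fitted fold changes rest on few reads.

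The other genes had few counts. *Hoxb7* had 26 counts in the 6 libraries without and 26 in the 6 with H3.1K27M, and *Hoxa6* had 11 and 10. In Hox C, *Hoxc4* had 3, 10 and 8 counts with *ACVR1* WT, 1, 7 and 6 with *ACVR1* R206H, then 1, 1 and 0, and 5, 0 and 1 in the corresponding groups with H3.1K27M, and *Hoxc5* had 1, 0 and 2, then 0, 1 and 1, then 1, 1 and 0, then 0, 0 and 0. The groups of *Hoxc4* overlapped under *ACVR1* R206H. In Hox D, *Hoxd3*, whose exons are 62.8% shared with other genes, had 1, 2 and 5, then 3, 3 and 6, then 5, 0 and 1, then 1, 2 and 1. *Hoxd8* had 0, 8 and 1, then 1, 1 and 1, then 1, 0 and 2, then 1, 1 and 1, with its highest count in *ACVR1* WT replicate 2. The 16 genes of paralogue groups 9 to 13 had 6 counts without and 9 with H3.1K27M, and none of them had more than 2 in a library. *Hoxc13* had 1 count in *ACVR1* WT with H3.1K27M replicate 1 and 1 in *ACVR1* R206H with H3.1K27M replicate 3, *Hoxd1* had 1 in replicate 3 of each of these groups, and both had 0 in the other libraries. The 9 others seen at all (*Hoxa9*, *Hoxa10*, *Hoxa11*, *Hoxa13*, *Hoxb9*, *Hoxc6*, *Hoxc8*, *Hoxd9* and *Hoxd10*) had between 1 and 4 counts over the 12 libraries.

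Summed over all 38 genes, Hox levels lay between 22.3 and 30.2 CPM in the 6 libraries without and between 7.18 and 12.5 CPM in the 6 with H3.1K27M. Hox A summed to 19.7 ± 2.54 CPM (SD, n = 3) with *ACVR1* WT, 18.2 ± 1.51 with *ACVR1* R206H, 5.88 ± 0.604 with *ACVR1* WT and H3.1K27M and 8.54 ± 0.377 with *ACVR1* R206H and H3.1K27M. Hox B gave 6.96 ± 1.64, 6.81 ± 1.22, 1.60 ± 0.28 and 2.51 ± 0.601 CPM in the same order. The log2 ratio of the mean sums with H3.1K27M was thus -1.75 for Hox A and -2.12 for Hox B under *ACVR1* WT, and -1.09 and -1.44 under *ACVR1* R206H. By paralogue, groups 1 to 4 changed by -1.95 and -1.18 and groups 5 to 8 by -1.50 and -1.19 under the 2 vectors. These sums are descriptions with no test.

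Without *ACVR1* WT replicate 1, 8 of 8 Hox genes were lower with H3.1K27M under *ACVR1* WT, while the count over all genes went from 3533 to 8115. Leaving out *ACVR1* WT replicate 2 left 5 of 7 tested, and leaving out 1 of the 3 libraries with *ACVR1* WT and H3.1K27M left 7, 6 and 6 of 8, while 3.20% and then 2.33%, 2.09% and 2.02% of all genes were called lower, with *Hoxa5* (adjusted p up to 0.124) and *Hoxb2* (up to 0.0807) the genes that lost the call. Under *ACVR1* R206H, 6 to 8 of 8 were called when 1 library was left out, with *Hoxb2* lost without replicate 3 of either group and *Hoxb8* without replicate 2 or 3 of either group.

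**Figure D3:**
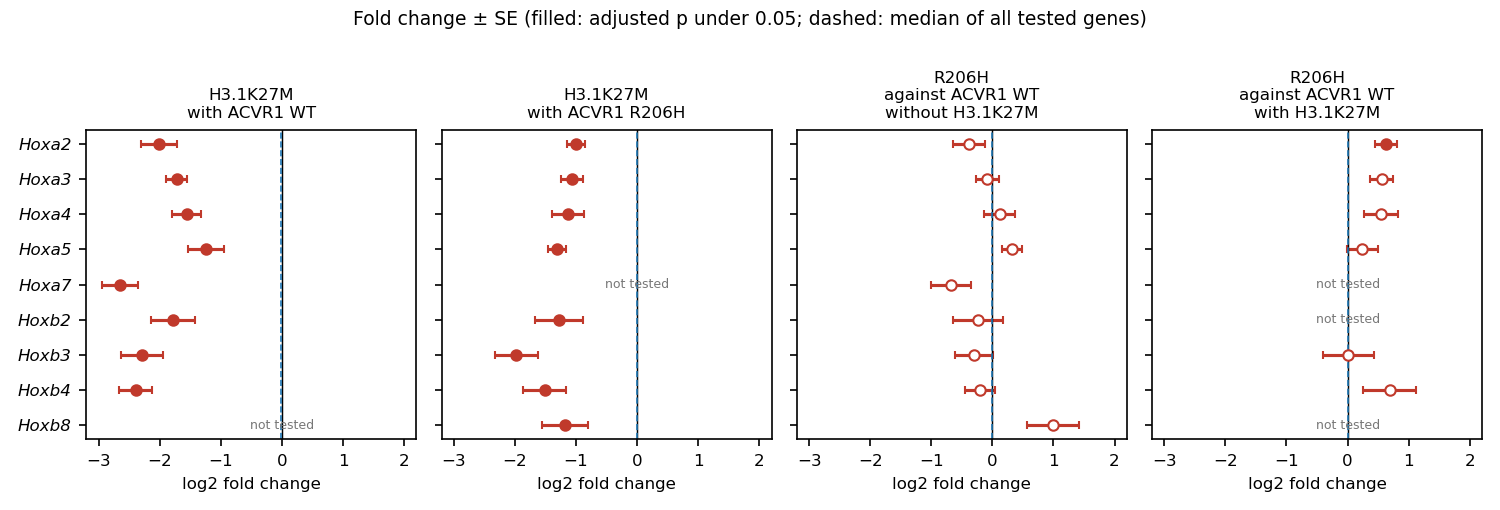
Log2 fold change ± SE of the 9 tested Hox genes in 4 comparisons (filled points: adjusted p under 0.05; dashed line: median of all tested genes). All points in the 2 panels for H3.1K27M lie between -2.65 and -1.0, while the panels for R206H lie on both sides of 0 without H3.1K27M and between 0.01 and 0.69 with it.

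The next comparison asked whether R206H changed Hox expression. Without H3.1K27M no Hox gene differed between *ACVR1* R206H and *ACVR1* WT among 9 tested, nor did any of 15066 genes (0% called, with 534 genes at an unadjusted p under 0.05, none of them a Hox gene, and 26 genes but no Hox gene called by DESeq2). Log2 fold changes lay between -0.68 (*Hoxa7*, SE 0.33, adjusted p = 0.94) and 0.99 (*Hoxb8*, SE 0.42, adjusted p = 0.94), with a median of -0.20 against -0.01 for all genes. *Hoxb8* passed the filter on low counts only through *ACVR1* R206H, where it was higher. *Hoxa5* was higher in all 3 R206H libraries than in any *ACVR1* WT library, at 4.45 to 4.64 against 2.97 to 4.25 CPM, a log2 fold change of 0.32 (SE 0.17) that did not pass. *Hoxa7* was lower in all 3. Groups that did not overlap were found for 4.45% of all genes in the first direction and 5.06% in the second. Without *ACVR1* WT replicate 1, *Hoxa2* was called lower with R206H (-0.61, adjusted p = 0.022), in a fit that called 3485 genes.

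With H3.1K27M in both groups, *Hoxa2* alone of 6 Hox genes tested passed, at 2.77, 3.09 and 3.01 CPM with *ACVR1* R206H against 1.56, 1.95 and 2.22 with *ACVR1* WT. Its log2 fold change was 0.63 (SE 0.18, adjusted p = 0.0247), in a comparison in which 20.3% of all genes were called, 11.4% higher and 8.95% lower. *Hoxa3* changed by 0.56 (SE 0.19, adjusted p = 0.0504) and *Hoxa4* by 0.55 (SE 0.28, adjusted p = 0.194), and neither passed. *Hoxa2*, *Hoxa3* and *Hoxa4* did not overlap between the groups, as did 19.2% of all genes in that direction. The call for *Hoxa2* was lost with DESeq2, in the fit of all 12 samples and in the fits without replicate 1 or 2 of *ACVR1* WT with H3.1K27M or replicate 2 or 3 of *ACVR1* R206H with H3.1K27M, its adjusted p running from 0.012 to 0.243 over 13 alternatives. The sum over 38 genes was 7.18 to 8.24 CPM with *ACVR1* WT and 10.4 to 12.5 CPM with *ACVR1* R206H.

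Whether the effect of H3.1K27M differed between the 2 *ACVR1* vectors was tested as an interaction over the 12 samples. No Hox gene of 8 passed, and 11 of 15445 genes did (0.0712%, with 0.0583% positive and 0.0129% negative), with 1183 genes and 3 Hox genes at an unadjusted p under 0.05 and no Hox gene called by DESeq2. The 3 were *Hoxa7* (1.60, SE 0.49), *Hoxa2* (1.01, SE 0.32) and *Hoxa3* (0.65, SE 0.25), each with a smaller fall under R206H, at adjusted p of 0.5, 0.5 and 0.602. Without *ACVR1* WT replicate 1, 2 Hox genes passed, *Hoxa2* (1.25, adjusted p = 0.00117) and *Hoxa3* (0.74, adjusted p = 0.0465), and 4112 genes did.

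The listed noncoding RNAs inside the clusters that could be tested were lower with H3.1K27M as well. Of 16 in the files, 4 were tested under *ACVR1* WT and 4 fell with H3.1K27M, and 3 of 3 fell under *ACVR1* R206H, where 10.4% and 27.4% of all genes fell. *Hoxb3os* in both comparisons and *Hoxaas3* in the first averaged 10 counts only without H3.1K27M, so that the filter favoured their fall, and the other 2 of each comparison (*Hoxaas2* and *Hotairm1*) fell. *Hoxaas2*, an antisense RNA in the *Hoxa3* region, changed by -2.70 (SE 0.29, adjusted p = 0.00271) and -1.36 (SE 0.25, adjusted p = 5.3e-04) under the 2 vectors. *Hotairm1*, a long noncoding RNA at the 3′ end of Hox A, changed by -1.90 (SE 0.23) and -1.36 (SE 0.33), and *Hoxb3os* by -2.24 (SE 0.49) and -1.67 (SE 0.40). *Gm15050*, within Hox A, had 60 to 116 counts in the 6 libraries without and 8 to 24 in the 6 with H3.1K27M. Under *ACVR1* WT it averaged 10 counts only without H3.1K27M, so that the filter favoured its fall there. Of all 4 genes other than Hox genes tested inside Hox A under *ACVR1* WT, 3 fell and *5730596B20Rik* was not called. Under *ACVR1* R206H 3 of 3 fell. Reads were counted without strand, so that a gene and an antisense partner cannot be told apart where they overlap, and the 6 microRNA genes listed had no counts.

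Genes that flank the clusters moved in both directions. Of 13 tested, 1 rose and 4 fell with H3.1K27M under *ACVR1* WT, and 4 rose and 8 fell under *ACVR1* R206H, with medians of -0.17 and -0.14, while over all genes 12.6% rose and 10.4% fell, then 29.1% rose and 27.4% fell. *Skap2*, next to Hox A, changed by -0.43 (SE 0.07) and -0.26 (SE 0.04), and *Atp5g3*, which codes for a subunit of ATP synthase near Hox D, rose by 0.80 (SE 0.17) and 0.66 (SE 0.05). *Hnrnpa1* and *Cbx5*, near Hox C, fell by 0.91 (SE 0.04) and 0.58 (SE 0.05) on the log2 scale under *ACVR1* R206H.

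Genes of the proteins that bind DNA together with Hox proteins had medians of -0.27 and -0.14. Of 9 Pbx, Meis and Pknox genes tested, 2 fell and none rose with H3.1K27M under *ACVR1* WT, and 4 fell and 3 rose under *ACVR1* R206H, where 23.0% and 56.5% of all genes were called in either direction. *Meis2* changed by -0.81 (SE 0.08, adjusted p = 0.00194) and -0.62 (SE 0.05, adjusted p = 5.6e-07), and *Meis1* by -0.69 (SE 0.08) and -0.57 (SE 0.05). Their levels, 86.5 to 94.9 CPM for *Meis2* without H3.1K27M, were far above those of any Hox gene.

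Of 24 genes of retinoic acid signalling and other Hox inducers, 16 were tested, of which 2 rose and 3 fell under *ACVR1* WT and 8 rose and 6 fell under *ACVR1* R206H, against 23.0% and 56.5% of all genes called in either direction. Under *ACVR1* R206H *Rarb* averaged 10 counts only with H3.1K27M, which favours a rise. Without it 7 of 15 rose and 6 fell, and the median was -0.12 instead of 0.11. *Cyp26b1*, an enzyme that breaks down retinoic acid, rose by 0.93 (SE 0.15, adjusted p = 0.00843) and 1.24 (SE 0.07, adjusted p = 2.9e-08) with H3.1K27M, and by 1.00 (SE 0.04) with R206H in the presence of H3.1K27M. *Aldh1a1*, an enzyme that makes it, fell by 0.95 (SE 0.07) under *ACVR1* R206H. The receptor *Rarg* rose by 1.27 (SE 0.16) and 1.00 (SE 0.10), and *Rxrg* fell by 2.22 (SE 0.36) under *ACVR1* WT.

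Of 37 Polycomb and Trithorax genes, 8 fell and 1 rose under *ACVR1* WT, and 17 fell and 5 rose under *ACVR1* R206H, with medians of -0.18 and -0.14. Over all genes, 10.4% fell and 12.6% rose in the first comparison and 27.4% fell and 29.1% rose in the second. *Bmi1*, a core subunit of Polycomb complex 1, changed by -0.63 (SE 0.06) and -0.55 (SE 0.05), and *Jarid2*, which guides Polycomb complex 2, by -0.64 (SE 0.08) and -0.80 (SE 0.05). *Pcgf2* fell by 1.07 (SE 0.16) under *ACVR1* WT, the enzyme *Ezh2* fell by 0.57 (SE 0.04) under *ACVR1* R206H, and *Cbx6* rose by 0.44 (SE 0.04).

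Transcription factors of brain regions that lie anterior to the Hox domain went the opposite way. Of 12 such genes 8 were tested, of which 5 rose and none fell with H3.1K27M under *ACVR1* WT, and 7 rose and none fell under *ACVR1* R206H, with medians of 1.81 and 1.61, while 12.6% and 29.1% of all genes were called higher. *Six3* averaged 10 counts only with H3.1K27M, which favours a rise, and without it 4 of 7 and 6 of 7 rose, with medians of 1.64 and 1.42. *Six3*, a forebrain and eye gene, had 0 to 6 counts in the 6 libraries without and 131 to 319 in the 6 with H3.1K27M, a log2 fold change of 4.71 (SE 0.20, adjusted p = 2.0e-04) and 6.46 (SE 0.32, adjusted p = 1.6e-08). *Otx1* lay at 1.51 to 2.40 CPM without and 8.99 to 13.1 CPM with H3.1K27M, and *Otx2*, which sets the limit between midbrain and hindbrain, had 60 to 125 counts without and 396 to 530 with H3.1K27M. *Emx2*, a gene of the cortex, and *Lhx2* rose as well, by 1.64 (SE 0.22) under *ACVR1* WT and 1.81 (SE 0.19) under *ACVR1* R206H respectively.

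The sum of the 12 genes was 32.5 to 47.5 CPM without and 76.8 to 99.1 CPM with H3.1K27M. Among other developmental homeobox and T-box genes, *Nkx2-1*, a gene of the hypothalamus and ventral forebrain, had no count in any of the 6 libraries without H3.1K27M and 83 to 201 in the 6 with it, at least 82.7-fold higher under *ACVR1* WT and at least 141-fold under *ACVR1* R206H (floor of 3 counts over each group). *Pax3*, a gene of dorsal neural tube, fell by 1.11 (SE 0.10) and 0.90 (SE 0.06). The labels do not say whether the groups with and without H3.1K27M came from the same dissections, so that a difference in the brain region the cells came from and an effect of H3.1K27M cannot be told apart.

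**Figure D4:**
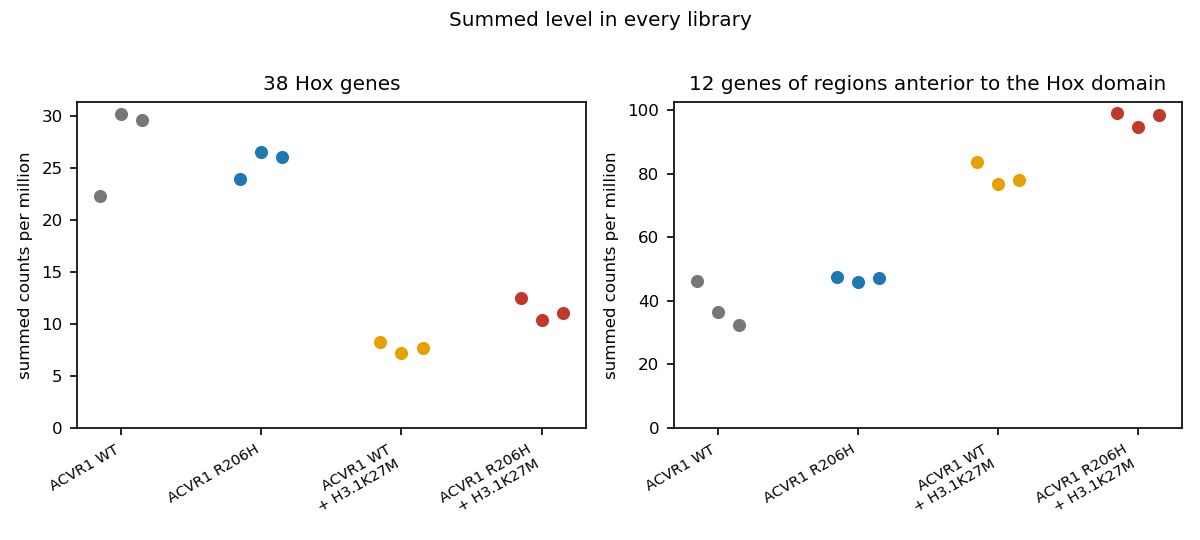
Summed CPM of the 38 Hox genes (left) and of 12 genes of brain regions anterior to the Hox domain (right), 1 point per library in each of the 4 groups, both axes from 0. Libraries with H3.1K27M lie at 7.18 to 12.5 CPM on the left and 76.8 to 99.1 CPM on the right, libraries without it at 22.3 to 30.2 and 32.5 to 47.5 CPM.

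Markers of other cell types also moved with H3.1K27M, and their part in the Hox result was not tested. Of 6 microglia genes, 4 were tested and 3 fell under *ACVR1* WT, and under *ACVR1* R206H 1 of 2 tested fell and 1 rose. The genes that fell (*Csf1r*, *Cx3cr1* and *Ptprc*, then *Csf1r*) averaged 10 counts only without H3.1K27M, so that the filter favoured their fall and the counts are a description. Their sum was 3.21 to 11.9 CPM with *ACVR1* WT, 3.95 to 5.84 with *ACVR1* R206H, 1.31 to 1.79 with *ACVR1* WT and H3.1K27M and 2.12 to 3.31 with *ACVR1* R206H and H3.1K27M, and *Csf1r*, a defining gene, had 19 to 111 counts in libraries without and 0 to 3 in libraries with H3.1K27M. Of 7 fibroblast and mural genes, 5 were tested and 3 rose under *ACVR1* WT, and 4 were tested and 4 rose under *ACVR1* R206H, where 12.6% and 29.1% of all genes rose (2 of 4 and 3 of 3 without *Col1a2*, which averaged 10 counts only with H3.1K27M), with sums of 8.48 to 12.5, 13.4 to 15.5, 16.9 to 18.2 and 28.6 to 33.4 CPM in the same order.

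Of 7 neural progenitor genes, 2 fell and none rose under *ACVR1* WT, and 3 fell and 1 rose under *ACVR1* R206H, near the 23.0% and 56.5% called over all genes. *Sox2* changed by -0.64 (SE 0.09) and -0.43 (SE 0.04), and *Sox9* by -0.84 (SE 0.19) and -0.54 (SE 0.05), which is less than any Hox gene tested. Of 5 neural crest genes 3 were tested, of which 2 fell under *ACVR1* WT, and 2 fell and 1 rose under *ACVR1* R206H, with *Tfap2a* at -2.17 (SE 0.27) and -1.83 (SE 0.09).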

How the data were processed

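RNA-seq was deposited for 12 libraries in 4 groups of 3, grouped by their labels. Per the labels and the paper's methods, paired-end reads were mapped on mm10 (STAR 2.6.0b-1) and counted per Ensembl gene by the authors with HTSeq, without strand and in union mode, and the deposited values are raw counts. No row without a gene was present. Counts were tested here with edgeR 4.0.16 (quasi-likelihood test, TMM, R 4.3.3) on the 6 libraries of each comparison, or on 12 for the average and the interaction, for genes whose normalized counts averaged 10 or more, with Benjamini-Hochberg adjustment over all genes and a threshold of 0.05. The SE was taken as the log2 fold change divided by the square root of F. Scripts were tested on simulated data. GENCODE M21 gave names and exons (54409 of 54532 genes matched).

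Every Hox gene of the list is accounted for, and values per library are given for genes called in any comparison and for the 3 highest of each cluster per kb. Other lists name at most 4 genes with the smallest adjusted p per comparison, and others were chosen after their values were seen. The members and lists were chosen with earlier results of these data known. 1 further Hox gene is not reported here. Alternatives were DESeq2 1.42.0, its size factors, other filters, thinning, the replicate block, all 12 samples in 1 fit and leaving out each library.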

Additional observations from a re-analysis of the deposited data

How the results depend on the processing

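With H3.1K27M, each Hox gene tested in the main analysis stayed lower in every alternative fit in which it was tested. The Hox genes called were 5, 4 and 4 under *ACVR1* WT, under *ACVR1* R206H and in the average with at least 10 counts in every sample, where 5, 4 and 4 were tested, and 5 to 8, 6 to 8 and 7 to 9 when 1 library was left out. For R206H with H3.1K27M they were 0 with DESeq2, 0 in the fit of all 12 samples, 2 with at least 10 counts in every sample and 0 to 2 without 1 library. For R206H without H3.1K27M they were 0 to 1, and for the interaction 0 to 2, without 1 library. Over all genes, R206H without H3.1K27M gave 26 calls with DESeq2, 11 in the fit of all 12 samples and 0 to 3485 without 1 library. R206H with H3.1K27M gave 440 in the fit of all 12 samples and 1915 to 2966 without 1 library. H3.1K27M under *ACVR1* WT gave 6335 in the fit of all 12 samples and 1037 to 8115 without 1 library, against 3533. The interaction gave 96 with DESeq2, 18 with no filter and 3 to 4112 without 1 library, against 11. The 3485, 8115 and 4112 calls came without *ACVR1* WT replicate 1. The cause of these shifts was not tested beyond the smaller number of samples or genes. Without 1 library, small R206H changes turned sign: without H3.1K27M *Hoxa3* ran from -0.18 to 0.06 (0.01 without *ACVR1* WT replicate 3), *Hoxa4* from -0.06 to 0.32 and *Hoxb3* from -0.51 to 0.01, with H3.1K27M *Hoxb3* from -0.17 to 0.31, and in the interaction *Hoxa5* from -0.27 to 0.26 (0.06 without *ACVR1* WT replicate 3) and *Hoxb3* from -0.17 to 0.61. Same-numbered libraries correlated between -0.115 and 0.325 over genes, not all above 0.1 in any comparison, and were not treated as pairs, although the labels leave a shared litter possible. With the replicate block 2023 genes were called for H3.1K27M under *ACVR1* WT and 2 for the interaction, and all 8 tested Hox genes stayed lower with H3.1K27M in each of the 3 fits. Summed cluster levels moved by less than the spread between replicates under all alternatives tried. Depth limits what can be said of 29 Hox genes that were too low to test.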

Other observations

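Of 76 other developmental transcription factor genes (among them Dlx, Nkx, Pax, Irx, Tbx and Gata genes), 26 had no count in the 3 *ACVR1* WT libraries and 25 none in the 3 *ACVR1* R206H libraries, against 12 and 12 in the groups with H3.1K27M. Among those high enough to test, 7 rose and 6 fell with H3.1K27M under *ACVR1* WT (24 tested), and 8 rose and 10 fell under *ACVR1* R206H (25 tested), against 12.6% and 10.4%, then 29.1% and 27.4%, of all genes. Of the 17 in each comparison that averaged 10 counts both with and without H3.1K27M, 1 rose and 6 fell, then 2 rose and 8 fell. *Irx1* fell by 1.11 (SE 0.06, adjusted p = 5.0e-08) under *ACVR1* R206H. Between 22473 and 22904 genes had a count in the libraries without and between 23154 and 25207 in those with H3.1K27M.

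The counts of cell type genes that follow stand against 23.0% of all genes called under *ACVR1* WT and 56.5% under *ACVR1* R206H. Of 5 astrocyte genes, 1 fell under *ACVR1* WT (*Gfap*, -2.44, SE 0.66, adjusted p = 0.0431) and 2 rose and 2 fell under *ACVR1* R206H. Their sum was 2898 CPM in *ACVR1* WT replicate 1 against 7238 and 11133 in replicates 2 and 3, and that of 3 proliferation genes 1112 against 334 and 154, in the library that stood apart. No proliferation gene of the 3 changed with H3.1K27M under *ACVR1* WT and 3 fell under *ACVR1* R206H. Of 8 oligodendrocyte lineage genes 1 rose and 1 fell, then 5 rose and 2 fell. Of 6 neuron genes 1 rose and 2 fell, then 3 rose and 2 fell. *Rbfox3* averaged 10 counts only with H3.1K27M under *ACVR1* R206H, and without it 2 of 5 rose and 2 fell. The 6 neuron genes summed to 1196 to 1684 CPM with *ACVR1* WT and 1149 to 1412 CPM with *ACVR1* R206H. With H3.1K27M the sums were 745 to 783 and 617 to 680.3 CPM, which were not tested. Of 5 endothelial genes 1 was tested in each comparison and *Kdr* rose under *ACVR1* R206H (1.28, SE 0.26).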
